A study of Mus musculus with 4 samples.

Results

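Chemokines are small secreted proteins that direct the movement of leukocytes, and their receptors are G protein-coupled receptors that differ between cell types. The genes described here are the chemokine ligand and receptor genes of a mouse bone marrow culture, chosen by their symbols (Ccl, Cxcl, Xcl, Cx3cl, Ccr, Cxcr, Cx3cr or Ackr followed by a number). The pattern took 62 of the 26026 genes in the table, 41 ligands and 21 receptors, with 1 receptor gene left out of the choice and not analysed here. Of these, 26 genes (15 ligands and 11 receptors) averaged 1 RPKM or more across the libraries and are described below. RPKM are reads relative to transcript length and to the reads of the whole library, so levels can be set side by side between genes.

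Polyadenylated RNA was sequenced from bone marrow-derived cells (labelled BMDC) that were cultured with Flt3 ligand, a cytokine under which marrow progenitors form dendritic cells. The design text gives the interplay of the NF-kB subunits RelA and p50 in this differentiation as the question. The cultures were labelled wild-type (C57/B16) or Nfkb1-/- (C57/B16) and were harvested at day 3 or day 5, all in the same medium with Flt3 ligand. A single library was made for each genotype on each day, so no difference below has a replicate check and no p-value is given. The number of animals behind a culture, their age and the way Nfkb1 was disrupted do not appear in the labels, and the labels name no sorting step, so each library is a mixed culture. In such bulk RNA, fewer cells of a type and less RNA per cell cannot be told apart.

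Nfkb1 encodes p105, which is processed to the NF-kB subunit p50, and NF-kB dimers bind kappaB sites in the promoters of many inflammatory genes. Several chemokine genes, among them Cxcl1, Cxcl2, Ccl2 and Ccl22, are known NF-kB targets in myeloid cells. Ligands such as Ccl2 and Cxcl2 recruit monocytes and neutrophils in inflammation, while Ccl22 and the receptor Ccr7 are features of mature dendritic cells. Differences are on the log2(RPKM + 1) scale, where the change of a low gene comes out too small, and a gene was called higher or lower when that difference reached 1. Ratios are given with exact 95% intervals of the recovered reads, which cover counting error only.

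The library totals ran from 15255070 to 16215214 reads. Nfkb1 itself stood at 74.8 RPKM in wild type and 56.0 in the knockout at day 3, and at 114 and 64.7 at day 5, so transcripts of the gene remained in both libraries labelled knockout. Whether these transcripts carry the disruption cannot be read from RPKM. All 12 conventional dendritic cell markers on the list used here passed the filter in these cultures. So did all 12 neutrophil markers, whose summed level was above that of the dendritic cell markers in every library. The 11786 genes past the filter had a median knockout to wild-type difference of 0.13 at day 3 and 0.01 at day 5, and differences at day 3 are best read against that shift.

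The upstream DNA of 6 genes that differed in at least 1 comparison is shown because the targeted gene encodes a protein that binds promoters. Each is the 200 bases before the RefSeq start, from the GRCm38.p6 build (the deposited values were made on mm9), and is written 5′ to 3′ along the gene. Capitals mark matches on either strand to GGG, any 3 bases, then TTCC, which is a spelling of the kappaB site chosen after promoters had been looked at. Matches may overlap, as in Cxcl2, where adjoining matches on the 2 strands form a single run.
Cxcl2 (chr5:90903699-90903898, plus strand): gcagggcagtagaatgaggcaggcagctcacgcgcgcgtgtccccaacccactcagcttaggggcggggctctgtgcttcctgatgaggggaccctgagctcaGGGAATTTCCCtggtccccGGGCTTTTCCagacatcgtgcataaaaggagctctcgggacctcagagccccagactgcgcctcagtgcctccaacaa
Ccl22 (chr8:94745484-94745683, plus strand): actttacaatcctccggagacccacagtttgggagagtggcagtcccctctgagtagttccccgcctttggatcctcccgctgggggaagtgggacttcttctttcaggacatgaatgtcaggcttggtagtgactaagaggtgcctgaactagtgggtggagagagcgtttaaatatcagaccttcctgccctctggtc
Ccr6 (chr17:8242326-8242525, plus strand): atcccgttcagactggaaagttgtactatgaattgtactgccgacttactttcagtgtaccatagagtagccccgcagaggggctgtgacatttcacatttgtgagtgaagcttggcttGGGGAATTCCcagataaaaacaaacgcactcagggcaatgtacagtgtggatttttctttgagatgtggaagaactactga
Ccr3 (chr9:124021771-124021970, plus strand): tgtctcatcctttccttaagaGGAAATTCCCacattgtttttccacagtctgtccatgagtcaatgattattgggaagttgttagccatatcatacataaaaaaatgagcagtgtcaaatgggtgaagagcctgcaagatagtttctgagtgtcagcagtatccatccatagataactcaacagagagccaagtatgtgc
Cxcr2 (chr1:74153794-74153993, plus strand): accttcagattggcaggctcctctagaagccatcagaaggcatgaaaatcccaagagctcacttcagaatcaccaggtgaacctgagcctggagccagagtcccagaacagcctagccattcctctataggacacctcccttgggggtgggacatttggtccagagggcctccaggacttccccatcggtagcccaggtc
Cxcr3 (chrX:101734148-101734347, minus strand): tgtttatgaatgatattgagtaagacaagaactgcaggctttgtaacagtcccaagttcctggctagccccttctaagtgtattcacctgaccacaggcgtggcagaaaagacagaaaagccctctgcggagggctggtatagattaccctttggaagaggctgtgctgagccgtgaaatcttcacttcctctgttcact
The letters occurred in 3.91% of the 32851 upstream windows in the RefSeq table. Of the 44 chemokine genes with a window, 9 held a match in at least 1 window. Of these, 5 were among the 17 genes past the filter (Ccl9, Ccr3, Ccr6, Cxcl10 and Cxcl2). Of the 7 called genes with a window, 3 held a match. Xcl1, called but not printed above, had a window without a match. These counts are of genes, some with several windows, while the share is of windows, so they are not directly comparable. Cxcl2 held matches beginning 97, 96 and 78 bases before its start, and Cxcl1 and Cxcl3, on the same chromosome, also held the GGGAATTTCC match. Ccr6 held its match in the window of 1 of its 2 listed starts, which is the one printed. No window was used for Ccl2, Ccl24, Ccl4, Ccl5, Ccr7, Cxcl16, Cxcl5 and Cxcr5, among others. A match is a description of letters and does not show binding, and a window without a match says nothing about binding elsewhere.

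A few genes carried most of the chemokine RNA. Ccl6 and Ccl9, CC chemokines of myeloid cells that signal through Ccr1, were the 2 highest ligands in every library. Together they made up 78.3% of the summed ligand RPKM in wild type and 76.0% in the knockout at day 3, and 69.2% and 62.3% at day 5. Ccl5, Cxcl16 and Ccl3 followed in all 4 libraries, in an order that differed between libraries. Among receptors Cxcr4, which retains cells in the marrow through Cxcl12, was highest in wild type at day 3. Ccr2, the receptor that brings monocytes out of the marrow, was highest in the other 3 libraries. Ccr2 made up 25.4% of the summed receptor RPKM in wild type and 35.5% in the knockout at day 3, and 41.7% and 53.9% at day 5.

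**Figure D1:**
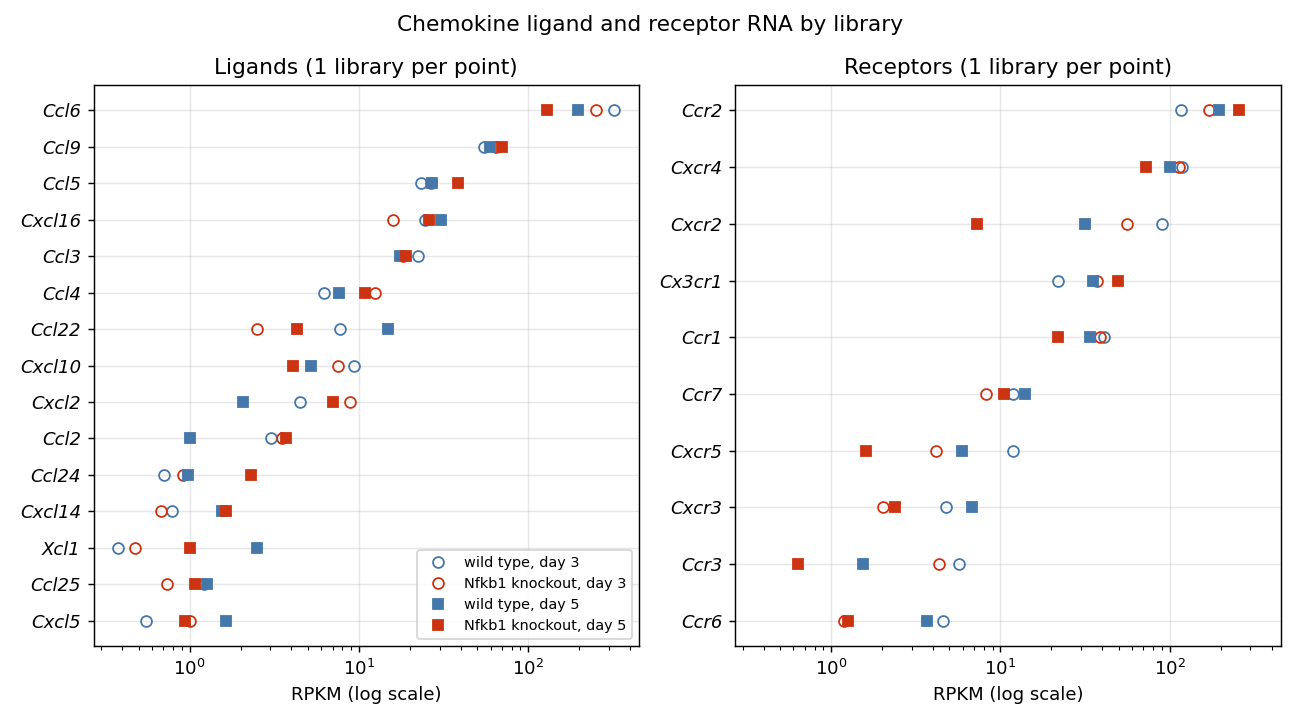
RPKM (log axis) of the 15 ligands and 10 of the 11 receptors with a mean of at least 1 RPKM, 1 point per library, with open circles for day 3, filled squares for day 5, blue for wild type and red for the Nfkb1 knockout. Cxcr2 spans 90.0 to 7.26 RPKM and Ccl22 is lower in both knockout libraries than in both wild-type libraries, while Ccl9 stays between 54.8 and 69.8 RPKM.

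The remaining 36 genes lay below the filter. Of these, 13 stood at 1 read in all 4 libraries, which is the lowest value in the table, and 21 held at most 5 reads in every library. The 4 atypical receptor genes (Ackr1 to Ackr4), which scavenge chemokines without G protein signalling, were all below it. The genes closest to the filter were Cxcl5 and Ccl25 inside it, with means of 1.04 and 1.07 RPKM, and Cx3cl1 and Ccl7 outside it, with means of 0.768 and 0.754 RPKM.

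Between genotypes, the genes called lower in the knockout at either day were Ccl22 and 4 receptors, and those called higher were Cxcl2 and Ccl2. At day 3 none of the 26 genes was called higher and 3 were called lower, Ccl22, Ccr6 and Cxcr5. The share called among all genes was 0.976% higher and 0.882% lower (1.86% in either direction), and a median-ratio rescaling of the libraries changed that split of all genes from 115 higher and 104 lower to 70 and 156. At day 5, 2 chemokine genes were called higher (Ccl2 and Cxcl2) and 5 lower (Ccl22, Ccr6, Cxcr2, Cxcr3 and Cxcr5), beside 1.16% higher and 3.22% lower (4.39% in either direction) among all genes. The median over the 26 genes was -0.09 at day 3 and -0.25 at day 5. By counting error alone, the interval of the ratio lay above 1 at both days for 6 genes, among them Ccl4, Ccl9, Ccr2, Cx3cr1 and Cxcl2. It lay below 1 at both days for 9 (Ccl22, Ccl6, Ccr3, Ccr6, Ccr7, Cxcl16, Cxcr2, Cxcr3 and Cxcr5). Ccl9 left the first set under the median-ratio rescaling, and Ccr1 and Cxcr4 joined the second set under both rescalings. No genotype difference of the 26 genes at either day changed its sign under a rescaling.

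**Figure D2:**
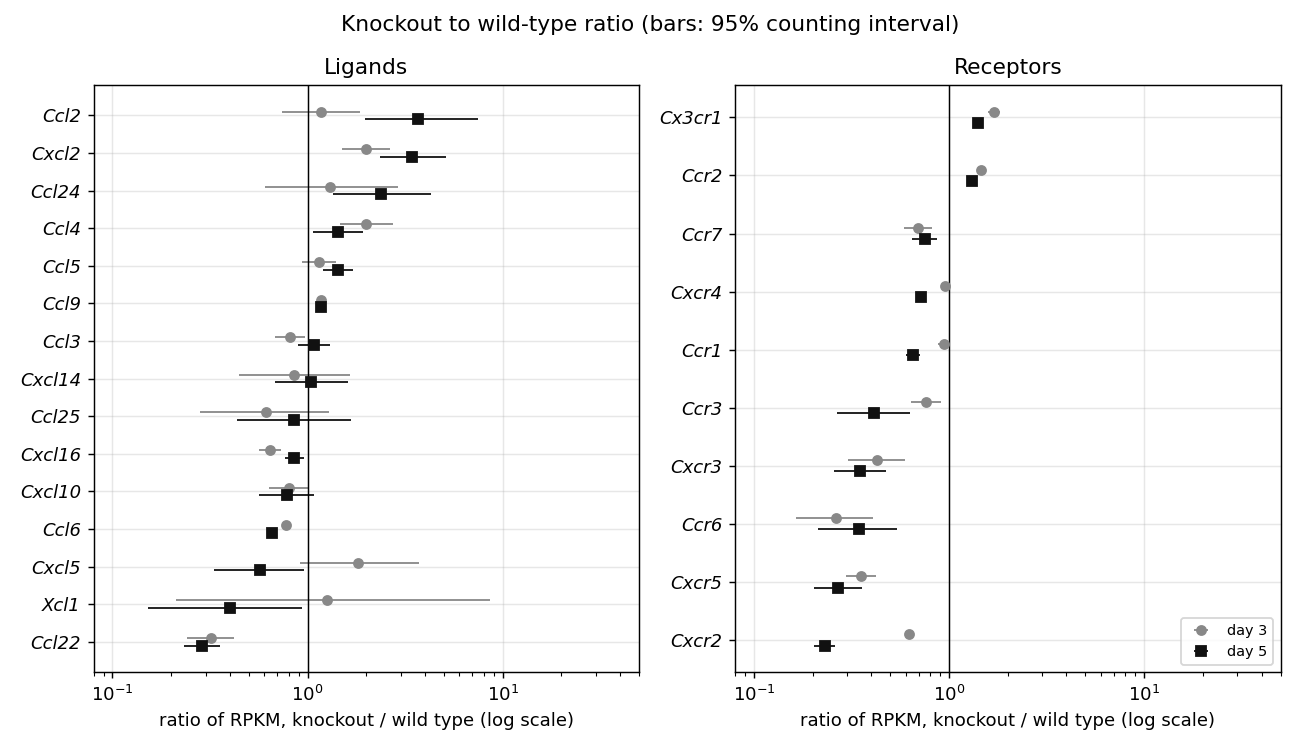
Ratio of RPKM in the Nfkb1 knockout to wild type (log axis) for the genes plotted by level, at day 3 (grey circles) and day 5 (black squares), with bars for the exact 95% interval of the reads, which covers counting error and not the spread between cultures. Ccl22, Ccr6, Cxcr5 and Cxcr3 lie at ratios between 0.263 and 0.426 at both days, Cxcr2 goes from 0.623 to 0.230, and Cx3cr1 and Ccr2 lie between 1.30 and 1.70.

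Among the inflammatory ligands, Cxcl2, a neutrophil attractant that binds Cxcr2, stood at 4.48 RPKM in wild type and 8.88 in the knockout at day 3, and at 2.06 and 7.08 at day 5. Both knockout libraries were above both wild-type libraries. The ratio was 1.98 (1.49 to 2.65) on day 3 and 3.43 (2.34 to 5.13) on day 5, with log2 differences of 0.85 and 1.40, so the call was made at day 5. Ccl2, the main ligand of Ccr2, stood at 3.01 RPKM in wild type and 3.52 in the knockout at day 3, and at 1.00 and 3.71 at day 5. The wild-type library at day 5 was the low value and the other 3 lay close together. Its ratio was 1.17 (0.742 to 1.85) on day 3 and 3.70 (1.97 to 7.47) on day 5, on 13 reads in wild type and 46 in the knockout. The change of its genotype difference between the days, 1.06, was the only call upward in that comparison, where 1% of all genes were called higher and 2.63% lower (3.63% in either direction). That split of all genes was 118 and 310, or 151 and 213 after the median-ratio rescaling.

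Ccl4 and Ccl3, which attract monocytes and T cells, lie next to each other on chromosome 11 and differed in their values. Ccl4 stood at 6.26 RPKM in wild type and 12.4 in the knockout at day 3, and at 7.62 and 10.9 at day 5. It was above wild type in the knockout at both days, with ratios of 1.99 (1.46 to 2.72) and 1.43 (1.07 to 1.93), and its log2 difference at day 3 was 0.89. Ccl3 stood at 22.5 RPKM in wild type and 18.3 in the knockout at day 3, and at 17.4 and 18.9 at day 5. Its ratio was 0.812 (0.679 to 0.971) on day 3 and 1.08 (0.898 to 1.31) on day 5. Ccl5, an attractant of T cells and monocytes, ran from 23.2 to 38.8 RPKM and was highest in the knockout at day 5, with ratios of 1.15 (0.941 to 1.40) and 1.43 (1.20 to 1.70). Ccl24, an eosinophil attractant, stood at 0.978 RPKM in wild type and 2.32 in the knockout at day 5. That ratio was 2.37 (1.35 to 4.30), with a log2 difference of 0.75.

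The abundant neighbours Ccl6 and Ccl9 differed in direction. Ccl6 stood at 323 RPKM in wild type and 251 in the knockout at day 3, and at 196 and 129.7 at day 5. It was below wild type in the knockout at both days, with ratios of 0.777 (0.751 to 0.805) and 0.660 (0.630 to 0.692). Ccl9 stood at 54.8 RPKM in wild type and 64.3 in the knockout at day 3, and at 59.4 and 69.8 at day 5, with ratios of 1.17 (1.11 to 1.24) and 1.18 (1.12 to 1.24). Within a library the ratio of Ccl9 to Ccl6 was 0.170 in wild type and 0.257 in the knockout at day 3, and 0.302 and 0.538 at day 5. Both are far from the size rule, and their narrow intervals rest on many reads and say nothing of the spread between cultures. Cxcl10, an interferon-induced ligand of Cxcr3, differed by -0.28 and -0.29, with intervals of the ratio that held 1 at both days as deposited, while under both rescalings the day 3 interval lay below 1.

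Of the dendritic cell and homeostatic ligands, Ccl22 alone was called. Ccl22, which mature dendritic cells use to attract Ccr4-bearing T cells, stood at 7.78 RPKM in wild type and 2.49 in the knockout at day 3, and at 14.9 and 4.30 at day 5. Both wild-type libraries lay above both knockout libraries. The ratio was 0.319 (0.241 to 0.418) on day 3 and 0.289 (0.234 to 0.354) on day 5. Its log2 differences of -1.33 and -1.58 placed it just behind Ccr6 at day 3 and behind Cxcr2 at day 5 in the order of the lower genes. Cxcl16, which exists as a membrane-bound and a shed form, stood at 24.6 RPKM in wild type and 15.8 in the knockout at day 3, and at 30.4 and 26.0 at day 5. Its ratio was 0.642 (0.563 to 0.733) on day 3 and 0.855 (0.766 to 0.954) on day 5. Cxcl14 and Ccl25 held between 13 and 46 reads per library, and their intervals held 1 at both days.

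The receptors called lower in the knockout were Ccr6, Cxcr5, Cxcr3 and Cxcr2. Ccr6, the receptor for Ccl20 on lymphocytes and some dendritic cells, stood at 4.56 RPKM in wild type and 1.20 in the knockout at day 3, and at 3.67 and 1.26 at day 5. Its ratio was 0.263 (0.163 to 0.410) at day 3, the lowest of the 26 genes at that day, and 0.344 (0.212 to 0.543) at day 5, on 26 reads in each knockout library. Cxcr5, the receptor that guides B cells into follicles, stood at 11.9 RPKM in wild type and 4.18 in the knockout at day 3, and at 5.90 and 1.60 at day 5. Its ratios were 0.353 (0.296 to 0.420) and 0.271 (0.203 to 0.357), with log2 differences of -1.31 and -1.41. For both receptors the wild-type libraries lay above the knockout libraries at both days.

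Cxcr3, the receptor for Cxcl9 and Cxcl10 on activated T cells, NK cells and plasmacytoid dendritic cells, had 4.77 RPKM in wild type and 2.03 in the knockout at day 3, and 6.79 and 2.38 at day 5. Its log2 difference was -0.93 at day 3, short of the rule, and -1.20 at day 5, with ratios of 0.426 (0.302 to 0.594) and 0.351 (0.257 to 0.474). Rescaling by the median ratio put the day 3 difference at -1.06. Cxcr2, the neutrophil receptor for Cxcl2, had the largest drop at day 5. It stood at 90.0 RPKM in wild type and 56.1 in the knockout at day 3, and at 31.5 and 7.26 at day 5, with the knockout library at day 5 far below the other 3. The ratio was 0.623 (0.593 to 0.653) on day 3 and 0.230 (0.204 to 0.259) on day 5. Its genotype difference moved from -0.67 to -1.98, and that change of -1.30 was the only call downward between the days among the 26 genes.

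Ccr2 and Cx3cr1 were above wild type in the knockout by less than the size rule. Ccr2 stood at 116 RPKM in wild type and 170.0 in the knockout at day 3, and at 196 and 256 at day 5. Cx3cr1, the receptor for membrane-bound fractalkine on resident-type monocytes and macrophages, stood at 21.8 and 37.1 RPKM at day 3 and at 35.4 and 49.7 at day 5. Within each day the knockout library was the higher of the pair for both receptors. The ratio of Ccr2 was 1.46 (1.42 to 1.51) on day 3 and 1.30 (1.27 to 1.34) on day 5. That of Cx3cr1 was 1.70 (1.58 to 1.82) and 1.40 (1.33 to 1.49).

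Ccr1, Cxcr4 and Ccr7 were below wild type by less than the rule. Ccr1, a receptor for Ccl3, Ccl5, Ccl6 and Ccl9, had ratios of 0.943 (0.882 to 1.01) on day 3 and 0.651 (0.600 to 0.706) on day 5. Cxcr4 had ratios of 0.954 (0.909 to 1.00) and 0.717 (0.677 to 0.759). As deposited, its distance from wild type was within counting error at day 3 and beyond it at day 5. Under both rescalings the day 3 intervals of Ccr1 and Cxcr4 lay below 1. Ccr7, which takes mature dendritic cells to lymph nodes, stood at 11.8 RPKM in wild type and 8.20 in the knockout at day 3, and at 14.0 and 10.5 at day 5. Its ratios were 0.694 (0.588 to 0.818) and 0.751 (0.647 to 0.870).

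From day 3 to day 5, the receptors Cxcr2 and Ccr3 were called lower in both genotypes. In wild type 1 of the 26 genes was called higher (Xcl1) and 3 lower (Ccl2, Ccr3 and Cxcr2), beside 1.8% and 2.05% (3.85% in either direction) of all genes, 212 and 242 of them, or 145 and 346 after rescaling by the median ratio. In the knockout none was called higher and 2 were called lower (Ccr3 and Cxcr2), beside 0.594% and 3.01% (3.61% in either direction). The comparisons of days and of genotypes share libraries, so their values are set side by side only. Cxcr2 had a day 5 to day 3 ratio of 0.350 (0.330 to 0.371) in wild type and 0.129 (0.115 to 0.145) in the knockout. Ccr3, the eotaxin receptor of eosinophils and basophils, stood at 5.67 RPKM at day 3 and 1.54 at day 5 in wild type, and at 4.31 and 0.635 in the knockout. Its ratio between the days was 0.271 (0.209 to 0.348) in wild type and 0.147 (0.0983 to 0.214) in the knockout, where 32 reads remained at day 5.

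Ccr2 and Cx3cr1 were above their day 3 level at day 5, with ratios of 1.69 (1.64 to 1.74) and 1.62 (1.51 to 1.74) in wild type. In the knockout their ratios were 1.51 (1.47 to 1.55) and 1.34 (1.27 to 1.42). Ccl22 was also above its day 3 level in both, by 1.92 (1.62 to 2.27) and 1.73 (1.28 to 2.35), so the gap between genotypes was present at both levels. Cxcr5 and Ccl6 were lower at day 5 in both genotypes, Cxcr5 by -0.90 in wild type and -0.996 in the knockout and Ccl6 by -0.71 and -0.95. Rescaling by the median ratio put the Cxcr5 differences at -1.05 and -1.003, past the rule. Within a library, the ratio of Cxcr4 to Cxcr2 RNA was 1.32 in wild type and 2.03 in the knockout at day 3, and 3.21 and 10.00 at day 5.

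**Figure D3:**
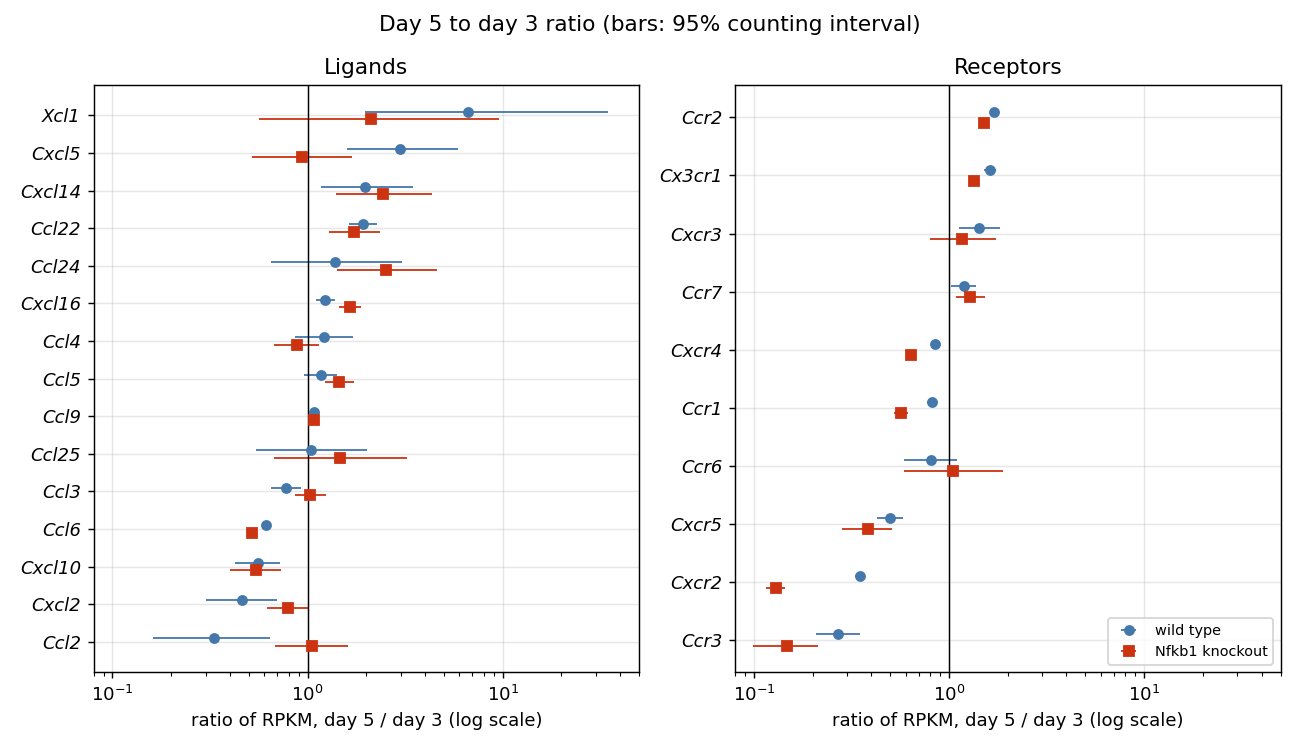
Ratio of RPKM at day 5 to day 3 (log axis) for the same genes in wild type (blue circles) and in the Nfkb1 knockout (red squares), with bars for the exact 95% interval of the reads. Among receptors Cxcr2 and Ccr3 lie furthest to the left in both genotypes, the Ccl2 points lie at 0.333 (wild type) and 1.05 (knockout), and the wide bar of Xcl1 rests on 3 reads in wild type at day 3.

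Xcl1, the ligand of the cross-presenting dendritic cell receptor Xcr1, held 3 reads in wild type and 4 in the knockout at day 3, and 21 and 8 at day 5. Its wild-type ratio between the days was 6.63, with a counting interval from 1.98 to 34.7, so the size is poorly placed, more so if 1 read was added to every gene, which the table does not settle. Xcr1 itself, whose symbol lies outside the pattern, stood at 3.00 RPKM in wild type and 1.34 in the knockout at day 3, and at 14.2 and 2.60 at day 5. Cxcl5, a neutrophil attractant close to the filter, had a knockout to wild-type ratio of 1.81 (0.919 to 3.74) on day 3 and 0.571 (0.332 to 0.960) on day 5, on 14 to 44 reads.

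Several of these genes are expressed by cells that make up different parts of such a culture, so the marker lists are given beside them. The 12 neutrophil markers summed to 32760 RPKM in wild type and 23427 in the knockout at day 3, and to 13298 and 3110 at day 5. At day 5, 9 of the 12 were called lower in the knockout, beside 3.22% of all genes. S100a8, S100a9 and Ngp carry most of the sum. Single neutrophil markers, named after their values were seen, differed. Prtn3 was above wild type in the knockout at both days, with ratios of 1.92 and 1.99. Mpo and Elane were above it at day 3 only, with 1.25 and 1.11. At day 5 Ly6g had a ratio of 0.107, Mmp8 of 0.571 and Mpo of 0.711. Per 1000 RPKM of the neutrophil marker sum, Cxcr2 amounted to 2.75 RPKM in wild type and 2.39 in the knockout at day 3. At day 5 it amounted to 2.37 and 2.33. Cxcr2 and this sum were thus lower in the same libraries by similar factors, which did not hold for every single marker. The part of neutrophil numbers in the Cxcr2 difference was not tested. Ccl6 did not keep such a proportion and went from 9.85 to 41.7 RPKM per 1000 between wild type at day 3 and the knockout at day 5. Of the 10 mast cell, basophil and eosinophil markers, 8 were called lower in the knockout at day 5, beside the same 3.22% of all genes. Their sum was 585 RPKM in wild type and 561 in the knockout at day 3, and 587 and 140.4 at day 5. Ccr3 was lower at day 5 in wild type, where that sum was not. Epx, the eosinophil peroxidase on this list, chosen after its values were seen, stood at 15.2 and 11.5 RPKM at day 3 and at 4.80 and 1.57 at day 5.

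**Figure D4:**
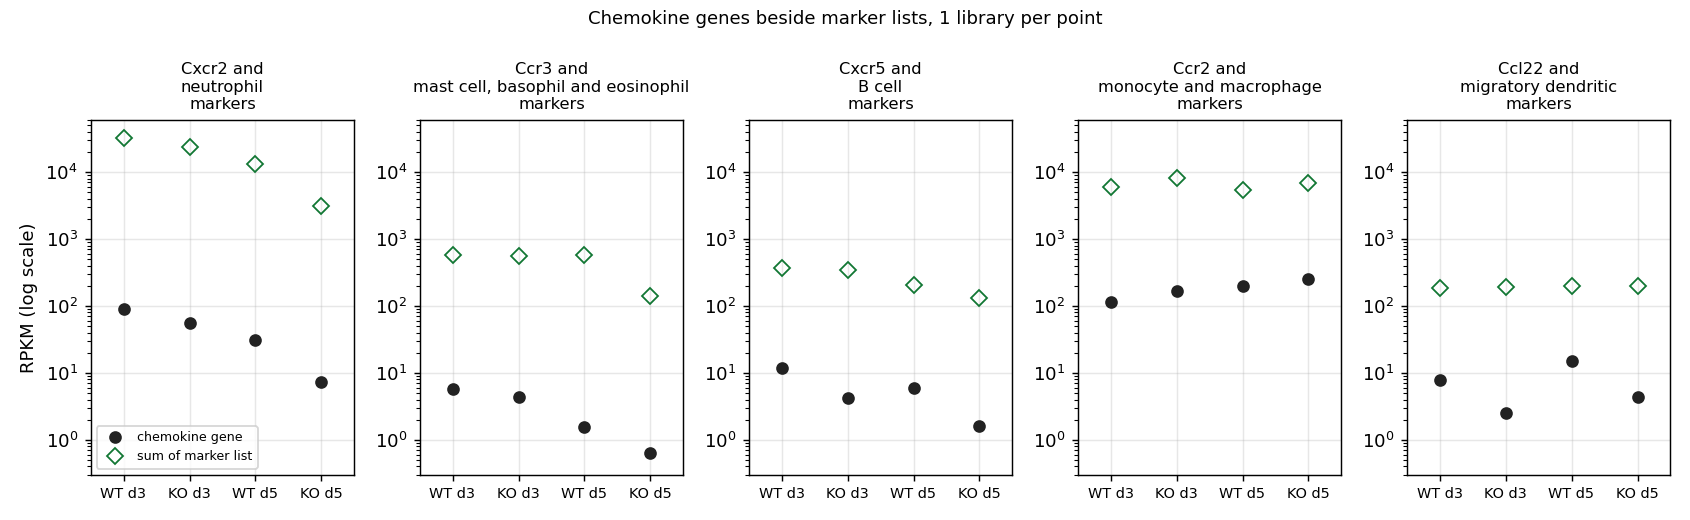
RPKM (log axis) of 5 chemokine genes (black circles) and of the sum of the marker list of a cell type known to express them (green diamonds) in the 4 libraries (WT, wild type; KO, Nfkb1 knockout; d3 and d5, day 3 and day 5). Cxcr2 goes down with the sum of the neutrophil markers from left to right. Cxcr5 and Ccl22 are lower in the knockout at day 3 beside plotted sums that differ little. The sum beside Ccl22 is mostly broadly expressed genes, and the conventional dendritic markers, not plotted, went from 2361 to 1447 RPKM.

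The B cell markers summed to 372 RPKM in wild type and 347 in the knockout at day 3, and to 204 and 131 at day 5. Cxcr5 amounted to 31.9 RPKM per 1000 RPKM of these markers in wild type and 12.1 in the knockout at day 3, and to 28.9 and 12.2 at day 5, so Cxcr5 was lower in the knockout against this sum at both days. Ccr6 per 1000 RPKM of them was 12.3 and 3.46 at day 3 and 17.9 and 9.64 at day 5. Of the T and NK cell markers 7 of 11 passed the filter. The 11 summed to 36.3 and 18.3 RPKM at day 3 and 20.6 and 7.21 at day 5. Of the 7, 4 were called lower in the knockout at day 3 and 3 at day 5, beside 0.882% and 3.22% of all genes. The plasmacytoid dendritic cell markers summed to 524 and 550.2 RPKM at day 3 and 585 and 446 at day 5, and Cxcr3 per 1000 RPKM of them was 9.10 and 3.69 at day 3 and 11.6 and 5.33 at day 5. Cxcr3 per 1000 RPKM of T and NK cell markers was 131 and 111 at day 3 and 330 in both genotypes at day 5. Cxcr3 was thus lower in the knockout against the plasmacytoid sum and close between genotypes against the T and NK cell sum at day 5. Bst2, Irf7 and Ly6d carry most of the plasmacytoid sum, and Cd4 is the largest part of the T and NK cell sum at day 5. Single plasmacytoid markers, named after their values were seen, differed. Siglech had ratios of 0.503 (0.449 to 0.564) at day 3 and 0.361 (0.329 to 0.397) at day 5, near those of Cxcr3. Tcf4 had ratios of 0.897 and 0.906. The part of either cell type in the Cxcr3 difference was not tested. The monocyte and macrophage markers summed to 6013 and 8156 RPKM at day 3 and 5422 and 6894 at day 5, higher in the knockout as Ccr2 and Cx3cr1 were. Ccr2 per 1000 RPKM of them was 19.3 and 20.8 at day 3 and 36.2 and 37.2 at day 5, close between the genotypes of a day, and the part of monocyte numbers in these differences was not tested.

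For Ccl22, the markers of mature migratory dendritic cells summed to 184 and 193 RPKM at day 3 and to 198 in both genotypes at day 5. None of the 10 measured markers was called between genotypes at either day, beside 1.86% of all genes at day 3 and 4.39% at day 5. With 10 genes, a count of 0 is not far from those shares. The broadly expressed Tmem123 and Marcks, named after their values were seen, weigh most in the sum of these markers. Fscn1, an actin-bundling gene of mature dendritic cells, chosen after its values were seen, stood at 4.45 and 2.29 RPKM at day 3 and at 7.79 and 6.38 at day 5. Cd40 of the same list, also chosen after its values were seen, went the other way. Its knockout to wild-type ratios were 1.78 (1.39 to 2.29) at day 3 and 1.66 (1.28 to 2.15) at day 5. Over the 10 measured markers the median log2 difference between genotypes was -0.000785 at day 3 and -0.0804 at day 5. The conventional dendritic cell markers summed to 2361 and 1447 RPKM at day 3 and to 3673 and 1619 at day 5, lower in the knockout. At day 5, 9 of these 12 were called lower, beside 3.22% of all genes. Ccl22 per 1000 RPKM of these dendritic cell markers was 3.30 and 1.72 at day 3 and 4.06 and 2.66 at day 5. The class II genes Cd74 and H2-Aa, which B cells also express, carry most of that sum. Single markers gave another picture, with ratios named here after their values were seen. At day 5 Clec9a, at 0.258 (0.227 to 0.291), and Zbtb46, at 0.274 (0.188 to 0.390), were as low in the knockout as Ccl22 or lower. At day 3 Zbtb46 stood at 0.323 (0.194 to 0.519), close to the Ccl22 ratio of 0.319, and Clec9a at 0.480 (0.399 to 0.576). Some other markers of the list were nearer to wild type or above it. Sirpa stood at 1.10 on day 3 and 1.09 on day 5, and Irf4 at 1.40 and 0.895. The part of dendritic cell numbers in the Ccl22 difference was not tested.

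Read as ligand and receptor pairs, the culture held receptors whose ligands were barely present. Ccl20, the ligand of Ccr6, stood at 1 read in every library, as did Ccl19 and the Ccl21 genes, ligands of Ccr7. The Ccl21 genes are near-identical copies, so reads that map to several of them may have been lost or shared. Cxcl13, the ligand of Cxcr5, held 5 reads in wild type at day 5 and 1 read elsewhere. Ccr4, the receptor of Ccl22, held 2 reads in wild type at day 3 and 1 read elsewhere. These partners were chosen for mention after their values were seen. In contrast, Ccr1 was measured together with its ligands Ccl3, Ccl5, Ccl6 and Ccl9. Cxcl2 and Cxcr2 differed in opposite directions between genotypes, with Cxcl2 above and Cxcr2 below wild type in the knockout at both days.

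Other genes of chemokine biology were described from fixed lists. Between genotypes, 1.86% of all genes were called in either direction at day 3 and 4.39% at day 5. Among 4 measured chemokine genes with other symbols, none was called between genotypes at day 3 and 2 were called lower in the knockout at day 5, Xcr1 by -2.08 and the platelet chemokine Ppbp by -1.27. Ppbp stood at 97.4 RPKM in wild type and 139 in the knockout at day 3, and at 355 and 147 at day 5, with the wild-type library at day 5 above the other 3. The megakaryocyte and platelet markers summed to 105.8 and 111.6 RPKM at day 3 and to 270.9 and 116.5 at day 5, and their part in the Ppbp difference was not tested. Of 12 measured receptors for other chemoattractants, none was called at day 3 and 3 were lower at day 5, among them the leukotriene receptor Ltb4r1 by -1.01 and the sphingosine phosphate receptor S1pr4 by -1.13. The third, S1pr1, named after its values were seen, was lower by -1.06. Ltb4r1 stood at 28.8 RPKM in wild type and 28.3 in the knockout at day 3, and at 15.3 and 7.09 at day 5. The formyl peptide receptors Fpr1 and Fpr2, which share neutrophil and monocyte expression, were not called between genotypes, with differences of 0.64 and 0.48 at day 3 and 0.89 and 0.41 at day 5. Both were lower at day 5 than at day 3, by -1.20 and -1.01 in wild type and by -0.95 and -1.08 in the knockout.

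Another list held genes that transmit or end chemokine receptor signals, such as G protein subunits, Rac activators, arrestins and RGS proteins. Of its 38 measured genes none was called between genotypes at either day, beside 1.86% of all genes at day 3 and 4.39% at day 5. With 38 genes, a count of 0 is not far from those shares. Over the 38 genes the medians were 0.09 and -0.14, against 0.13 and 0.01 for all genes. Rgs10 was the only gene of the list called between days in wild type, by 1.04, beside 3.85% of all genes. Rgs18 was the only one whose genotype difference was called between the days, by -1.20, beside 3.63% of all genes. Both accelerate the shutdown of G protein signals.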

How the data were processed

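RPKM per gene is the unit of the deposited table, per the file headers, with 26026 genes and 4 libraries. HISAT2, SAMtools and the mm9 build were used, per the submitters' processing notes, without versions. Nothing in the sources used here gives the counting tool, annotation or strandedness. RPKM values were analysed as log2(RPKM + 1) for the 11786 genes averaging 1 RPKM or more. With 1 library per group no test across replicates was made, and a difference of at least 1 was called by size. Every value is a whole number of read-sized steps, and these steps gave library totals and whole reads for all 26026 genes (tolerance 0.003 reads), checked on simulated data. No value was 0: genes without reads may have been set to 1 read, or all genes may have been raised by 1 read, and the table does not settle which. In that second case every read count printed is too high by 1, which matters for counts under 20. Exact 95% (Clopper-Pearson) intervals of read ratios treat reads as independent molecules, which reads without molecular identifiers are not. The members and lists were chosen with earlier results of these data known. Of the 26 measured genes, 1 receptor is counted but its values are not reported here. Any of the other measured genes could be named, genes called in any of 5 comparisons were given in every library, and up to 4 called genes were named per other list. Promoter sequences come from RefSeq (GRCm38.p6). Alternatives were other pseudocounts (0.1 and 5 RPKM), other filters (none, or 5 RPKM on average) and 2 rescalings (by median ratio and to the same sum). A filter of 20 recovered reads was added after the data were seen. Python 3.11.15 and scipy 1.17.1 were used.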

Additional observations from a re-analysis of the deposited data

Results flagged for a closer look

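Ccl2 was lower at day 5 than at day 3 in wild type, with a log2 difference of -1.003 on 37 reads at day 3 and 13 at day 5. In the knockout it held 46 reads on each day, with a difference of 0.0584 and a ratio of 1.05 (0.684 to 1.62), within counting error of no change. It was picked out because the difference between the genotypes changed by more than the size rule and the signs of these values differed. With 1 library per group that contrast was not tested.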

How the results depend on the processing

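No paired analysis was possible because each group holds 1 library, and for the same reason no library could be left out. With a pseudocount of 5 RPKM the counts of chemokine genes called were 0 lower at day 3 and 0 higher and 2 lower at day 5 between genotypes, 0 higher and 1 lower between days in wild type, 1 lower between days in the knockout, and 0 in either direction for the change of the genotype difference. With 0.1 RPKM, 2 were higher between days in each genotype and 3 were lower in the change of the genotype difference. With a mean of at least 5 RPKM, 1 was higher and 3 lower between genotypes at day 5, 0 higher and 1 lower between days in wild type, 1 lower in the knockout, and 0 higher in the change of the genotype difference. With at least 20 recovered reads, 0 were higher between days in wild type. A larger pseudocount shrinks differences of low genes by construction, and 5 RPKM exceeds the level of Ccr6, Ccl2 and Xcl1 in every library. The median between days in wild type went from 0.16 to -0.00219 with no filter and to -0.00151 after rescaling by the median ratio, and the median change of the genotype difference went from -0.12 to 0.0226 after that rescaling. No called gene changed direction under any alternative run. Rescaling by the median ratio put Cxcr3 at day 3 (-1.06) past the rule. Few reads limit Xcl1, Ccl25, Cxcl5 and Ccl24, and the lack of replicates limits all comparisons.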

Other observations

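Among genes below the filter, chosen after their values were seen, Cxcr6, the receptor for Cxcl16 on T and NK cells, held 42 reads in wild type and 9 in the knockout at day 3, and 27 and 5 at day 5. The ratios were 0.202 (0.0863 to 0.420) and 0.194 (0.0583 to 0.511). Ccl7, a Ccr2 ligand next to Ccl2, held 5 and 15 reads at day 3 and 4 and 14 at day 5, with ratios of 2.82 (0.975 to 9.93) and 3.66 (1.15 to 15.3). Both knockout libraries were above both wild-type libraries for Ccl7, and below them for Cxcr6. Cxcl12, the stromal ligand of Cxcr4, held 28 reads in wild type at day 5 and between 5 and 9 in the other libraries. Cx3cl1, the ligand of Cx3cr1, held 62 reads in wild type at day 5 and between 25 and 37 elsewhere. Stromal and endothelial markers, 4 of 11 past the filter, summed to 30.8 RPKM in wild type at day 5 and to between 19.0 and 20.7 elsewhere, and their part in these values was not tested.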
